A study of Homo sapiens with 6 samples.

Results

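The 51 genes described here encode the machinery with which the endoplasmic reticulum (ER) takes in, folds and discards secreted and membrane proteins. They were chosen by symbol from the 16934 genes counted, all 51 were in the table, and they fall into 6 groups by role. These are 4 genes of the stress sensors and the transcription factor XBP1, 11 chaperones and co-factors, and 9 disulphide and prolyl isomerases. The others are 4 genes of the lectin cycle, 12 of translocation and signal cleavage, and 11 of ER-associated degradation (ERAD). RNA was sequenced from A375, a human melanoma line in long use that carries an activating BRAF mutation. There were 3 libraries of cells edited with an sgRNA against POLK, the gene of the error-prone DNA polymerase kappa, and 3 libraries of cells given a non-targeting control sgRNA. Both groups went through editing with Alt-R CRISPR-Cas9 reagents and were grown in the same medium, and the labels name no drug. Neither the sequence of the guide nor the exon it targets is stated in the labels. The count columns of a group share 1 name stem, and no label places the libraries of a group in separate cultures or separately edited cells. Each p-value therefore sets the difference between groups against the spread between 3 libraries, which may be technical, and an effect of the POLK guide cannot be told apart from other differences between the 2 edited populations.

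Secretory proteins enter the ER through the Sec61 channel, lose their signal peptide, and are folded there by chaperones, disulphide isomerases and sugar-binding lectins. Proteins that do not fold are returned to the cytosol and degraded. When unfolded proteins accumulate, the sensors ATF6, IRE1 and PERK start the unfolded protein response, in which ATF6 and XBP1 switch on genes of folding and degradation and PERK slows translation and raises ATF4. Melanoma cells are known to engage this response under drugs and oncogenic signalling.

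The libraries held between 42852645 and 56891905 counts. POLK itself had 1095, 803 and 889 counts in POLK sgRNA libraries 1, 2 and 3, against 1004, 1312 and 1074 counts in control libraries 1, 2 and 3. Scaled to a library of 1000000 counts (CPM), this was 18.2 ± 1.0 CPM in POLK sgRNA libraries and 23.3 ± 0.842 CPM in control libraries (SD, n = 3 each), a log2 fold change of −0.36 with a standard error (SE) of 0.05 (adjusted p = 7.91e-08). A frameshift need not lower a transcript, so the POLK level is a partial check of the labels. SOX10, a lineage factor of melanoma, averaged 1160 CPM in POLK sgRNA and 1060 CPM in control libraries. MITF averaged 32.9 CPM in POLK sgRNA and 28.3 CPM in control libraries, while the pigment genes PMEL, MLANA, DCT, TYRP1 and TYR were all under 0.7 CPM. Of 13930 genes with enough counts to be tested, 32.8% were higher and 31.6% were lower in POLK sgRNA libraries at an adjusted p under 0.05 (edgeR's quasi-likelihood F test, Benjamini-Hochberg adjustment), so most genes differed between these libraries by that threshold. The median log2 fold change of all genes tested was 0.01, and the middle of the distribution, between its quartiles, ran between −0.17 and 0.21.

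The ER machinery was mostly lower in POLK sgRNA libraries. Of the 50 members tested, 36 were lower, 9 were higher and 5 were not called, beside the 31.6% of all genes called lower and the 32.8% called higher. The median log2 fold change of the members was −0.22. At a stricter call, which asks for a level shown to be more than 25% above or more than 20% below that of the control libraries, 12 members were lower and 2 were higher, where 8.79% of all genes were lower and 11.9% were higher. The POLK sgRNA and control values did not overlap for 47 of the 50 members, against 67.7% of all genes. The remaining member, DERL3, a derlin of the degradation route, was close to 0 in every library (0.0444 CPM in POLK sgRNA and 0.0478 CPM in control libraries) and could not be tested. Whole stretches of chromosome were shifted between the groups, so for members in such stretches the log2 fold change is also given less its neighbours, that is with the median of the tested genes within 5 Mb taken off. That median entered the fit as a fixed value. The adjusted p less neighbours therefore leaves out the uncertainty of the median and is too small to that extent.

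Summed, the 51 genes took 0.946%, 0.925% and 0.929% of the counts of POLK sgRNA libraries 1, 2 and 3, against 1.12%, 1.13% and 1.14% in control libraries 1, 2 and 3. The sum was 9281 ± 117 CPM in POLK sgRNA and 11370 ± 161 CPM in control libraries, and every POLK sgRNA library was below every control library. In RNA from whole cultures, fewer cells of a kind and less RNA per cell cannot be told apart.

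**Figure D1:**
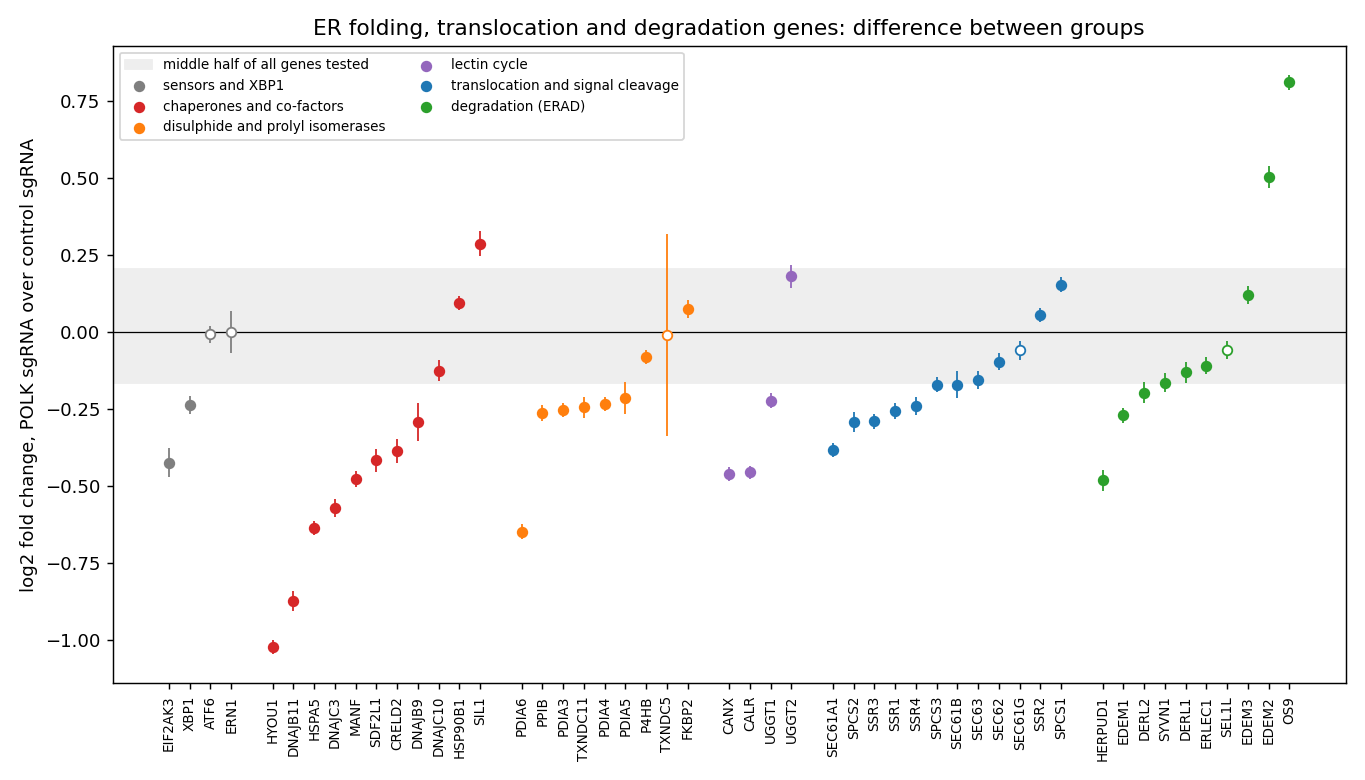
Log2 fold change (POLK sgRNA over control sgRNA) of the 50 members tested, on the vertical axis, with bars of 1 SE, ordered within each role. Filled points have an adjusted p under 0.05, open points do not, and the grey band is the range between the quartiles of all genes tested. HYOU1 lies lowest at −1.02 and OS9 highest at 0.81, and 8 of the 11 chaperone genes lie below the band.

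Of the sensors and XBP1, PERK was lower, XBP1 was lower, and ATF6 and IRE1 were not called. EIF2AK3, which encodes PERK, the kinase that slows translation, had 16.8, 18.3 and 16.8 CPM in POLK sgRNA libraries 1, 2 and 3, against 23.6, 23.1 and 22.9 CPM in control libraries 1, 2 and 3. All 3 POLK sgRNA values lay below all control values, at a log2 fold change of −0.42 (SE 0.05, adjusted p = 1.34e-09), and it was −0.26 less its neighbours. XBP1, the transcription factor whose RNA IRE1 splices, had 61.7, 60.0 and 61.1 CPM in POLK sgRNA libraries, against 71.1, 71.2 and 73.1 CPM in control libraries. The groups did not overlap either, at a log2 fold change of −0.24 (SE 0.03, adjusted p = 1.69e-08). These are total counts, which do not separate spliced from unspliced XBP1.

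ATF6, the sensor that is cut in the Golgi to release a transcription factor, had 85.1, 83.3 and 84.6 CPM in POLK sgRNA libraries and 85.4, 82.9 and 86.2 CPM in control libraries. The values of the 2 groups interleaved, and its log2 fold change was −0.01 (SE 0.03, adjusted p = 0.833). ERN1, the gene of the kinase and nuclease IRE1, had 476, 402 and 425 counts in POLK sgRNA libraries and 349, 451 and 440 counts in control libraries. At 8.53 ± 0.179 CPM in POLK sgRNA and 8.52 ± 0.557 CPM in control libraries, its log2 fold change was 0.00 with an SE of 0.07 (adjusted p = 0.998).

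The chaperones and their co-factors held the members with the largest decreases. Of 11 genes, 9 were lower and 2 were higher, the median log2 fold change was −0.42, and 6 of the 9 were lower by the stricter call. Together they summed to 2411 ± 41.6 CPM in POLK sgRNA libraries and 3220 ± 48.7 CPM in control libraries. HYOU1, a large ER chaperone that also exchanges the nucleotide of BiP, had 285, 283 and 280 CPM in POLK sgRNA libraries 1, 2 and 3, against 566, 587 and 572 CPM in control libraries 1, 2 and 3. Its mean in POLK sgRNA libraries was 49.2% of that in control libraries, with no overlap (log2 fold change −1.02, SE 0.02, adjusted p = 2.96e-28). HYOU1 lies at chr11:119044189-119057202 on the minus strand (GENCODE 29, build GRCh38).

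HSPA5, which encodes BiP, the main chaperone of the ER and the protein that holds the sensors inactive, had 834, 792 and 783 CPM in POLK sgRNA libraries, against 1239, 1239 and 1262 CPM in control libraries. The groups were far apart relative to their spread, at a log2 fold change of −0.63 (SE 0.02, adjusted p = 2.54e-22). DNAJB11, a J-domain co-chaperone that hands unfolded proteins to BiP, had 43.5, 43.2 and 43.5 CPM in POLK sgRNA libraries, against 76.1, 79.0 and 83.1 CPM in control libraries. The POLK sgRNA values were nearly the same in the 3 libraries and were 54.7% of the control mean (log2 fold change −0.87, SE 0.03, adjusted p = 9.92e-22). Less its neighbours, which lay at −0.43, DNAJB11 was at −0.44 (adjusted p = 1.68e-13).

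The other J-domain proteins were lower as well, by log2 fold changes of −0.57 for DNAJC3, which also restrains PERK, −0.29 for DNAJB9 and −0.12 for DNAJC10, which carries thioredoxin domains. DNAJC3 averaged 58.4 ± 1.92 CPM in POLK sgRNA and 86.7 ± 0.716 CPM in control libraries. SDF2L1, a partner of DNAJB11, averaged 33.3 ± 0.684 CPM in POLK sgRNA and 44.4 ± 2.28 CPM in control libraries. The 2 stress-inducible secreted factors MANF and CRELD2 were lower by log2 fold changes of −0.48 and −0.39, and MANF averaged 119 ± 0.841 CPM in POLK sgRNA and 165 ± 4.56 CPM in control libraries.

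SIL1 and HSP90B1 went the other way, HSP90B1 only as long as its position was left out of account. SIL1, the other nucleotide exchange factor of BiP, had 38.5, 39.7 and 41.5 CPM in POLK sgRNA libraries, against 30.9, 33.0 and 33.9 CPM in control libraries. It was higher in all 3 POLK sgRNA libraries than in any control library (log2 fold change 0.29, SE 0.04, adjusted p = 1.13e-07). HSP90B1, the HSP90 chaperone of the ER that folds integrins and Toll-like receptors, had 945, 928 and 922 CPM in POLK sgRNA libraries, against 857, 864 and 897 CPM in control libraries. The groups did not overlap, but the gap was small, at a log2 fold change of 0.09 (SE 0.02, adjusted p = 3.51e-04). HSP90B1 lies among genes of chromosome 12 with a median of 0.57, and less these it was lower, at −0.47 (adjusted p = 4.65e-19).

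The ratio of HSP90B1 to HSPA5 counts within a library was 1.13, 1.17 and 1.18 in POLK sgRNA libraries, against 0.692, 0.697 and 0.710 in control libraries. The ratio was higher in each POLK sgRNA library than in any control library. This pair and the 4 pairs given later were chosen after their values were seen. The exact two-sided permutation test gave p = 0.1 for each of the 5 ratios, the smallest value that 3 against 3 libraries allow, and 0.1 after Benjamini-Hochberg adjustment over the 5. Each pair joins a member called higher with one called lower, both without overlap between groups. The p-value was therefore fixed by the choice of pairs and adds nothing to the calls.

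**Figure D2:**
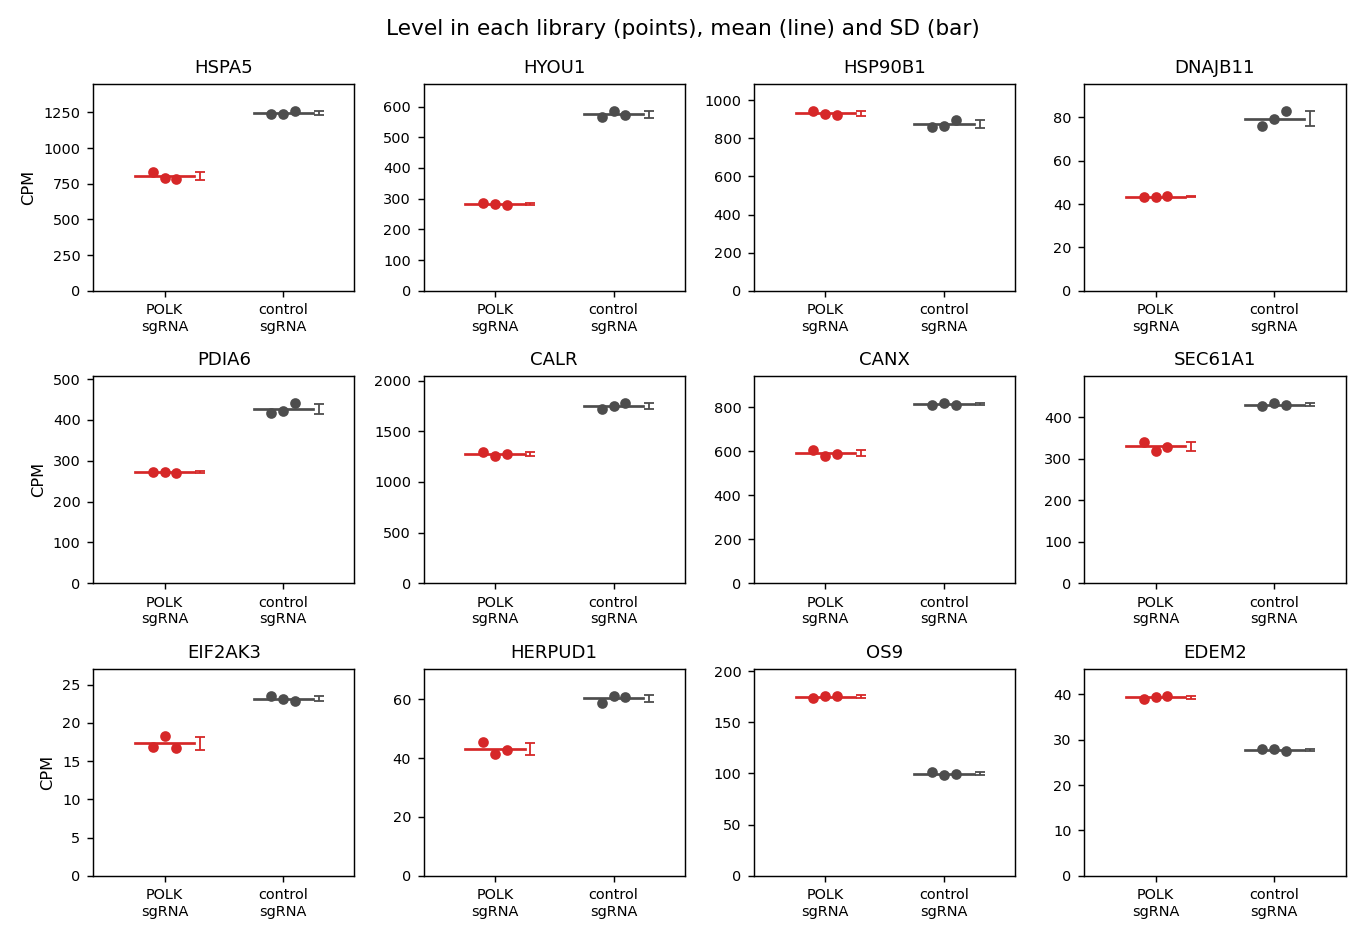
Level of 12 members in CPM (vertical axes, each starting at 0) in the 3 POLK sgRNA libraries and the 3 control sgRNA libraries, with the mean as a line and the SD as a bar. In all 12 panels the 2 groups are separate, with OS9, EDEM2 and HSP90B1 higher and the other 9 genes lower in POLK sgRNA libraries. Once neighbours are taken off, HSP90B1 is lower and HERPUD1 is not called.

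The promoters of 3 chaperone genes are shown because HSPA5 and HYOU1 were among the members that fell most, while HSP90B1, whose promoter holds the same kind of element as HSPA5, was slightly higher in level. Less their neighbours both were lower, HSPA5 at −0.61 and HSP90B1 at −0.47. Each is the RefSeq window of 300 bases, 250 before and 50 after the gene's start, printed 5′ to 3′ on the gene's strand from build GRCh38.p14. The capitals mark each ER stress response element (ERSE, the letters CCAAT, any 9 bases, then CCACG), to which NF-Y and ATF6 bind, and each ERSE-II (ATTGG, any 1 base, then CCACG), on either strand. HSPA5 is from chr9:125241294-125241593 on the minus strand, HYOU1 from chr11:119057156-119057455 on the minus strand and HSP90B1 from chr12:103930160-103930459 on the plus strand.
HSPA5: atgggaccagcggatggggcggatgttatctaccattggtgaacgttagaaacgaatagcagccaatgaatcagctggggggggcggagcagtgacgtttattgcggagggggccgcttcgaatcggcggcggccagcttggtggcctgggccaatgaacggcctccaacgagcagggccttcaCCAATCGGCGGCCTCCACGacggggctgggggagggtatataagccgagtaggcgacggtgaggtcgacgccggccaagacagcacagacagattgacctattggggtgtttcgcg
HYOU1: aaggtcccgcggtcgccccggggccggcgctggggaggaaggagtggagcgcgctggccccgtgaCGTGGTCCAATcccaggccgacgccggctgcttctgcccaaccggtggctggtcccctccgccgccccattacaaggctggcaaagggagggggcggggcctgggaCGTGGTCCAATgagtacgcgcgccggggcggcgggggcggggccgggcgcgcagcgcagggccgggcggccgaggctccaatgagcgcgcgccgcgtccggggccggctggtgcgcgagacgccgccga
HSP90B1: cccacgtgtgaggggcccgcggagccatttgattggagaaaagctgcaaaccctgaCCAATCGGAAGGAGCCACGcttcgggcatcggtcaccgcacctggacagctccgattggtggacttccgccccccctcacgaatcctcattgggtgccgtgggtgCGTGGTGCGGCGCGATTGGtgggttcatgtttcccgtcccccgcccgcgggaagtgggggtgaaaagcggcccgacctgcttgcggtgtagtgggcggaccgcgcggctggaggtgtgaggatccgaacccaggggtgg

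In these windows HSPA5 had 1 ERSE, 66 to 48 bases before the start. HYOU1 had no ERSE but 2 copies of ERSE-II on the other strand, 185 to 175 and 79 to 69 bases before the start. The first of these overlaps a match to the UPRE core, TGACGTGG, the site read by XBP1, at 188 to 181 bases. HSP90B1 had 2 ERSEs, one on the gene strand 194 to 176 bases and one on the other strand 89 to 71 bases before the start. Among the other chaperone genes lower by the stricter call, SDF2L1 had an ERSE-II. DNAJB11, DNAJC3 and MANF had no ERSE, ERSE-II or UPRE core, and DNAJB11, at −0.87, fell more than HSPA5, at −0.63.

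Of the 51 members, 47 had an entry among the RefSeq promoters, which cover 27305 genes in 35116 windows. An ERSE was found in 7 of the 47 (14.9%), beside 0.0916% of all genes and 0.0769% of all windows. The element is named for the ER stress response, to which these members belong. The shares of members with an element, here and below, are therefore descriptions and not independent results. Besides HSPA5 and HSP90B1 these were PDIA6, XBP1, CALR, CRELD2 and CANX, whose sites are printed below in the direction of the element, with the 2 fixed parts in capitals, to show that the spacer differs at each. The site lies 86 to 68 bases before the start of PDIA6, 52 to 34 before that of XBP1, 225 to 207 before that of CALR and 80 to 62 before that of CRELD2, and CANX holds 1 site seen from several starts.
PDIA6: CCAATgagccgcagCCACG
XBP1: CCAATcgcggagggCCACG
CALR: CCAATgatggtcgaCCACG
CRELD2: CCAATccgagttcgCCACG
CANX: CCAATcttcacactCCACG

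Of the 7 members with an ERSE, 6 were lower and 1, HSP90B1, was higher, with a median log2 fold change of −0.46, and HSP90B1 too was lower less its neighbours. Of the 40 members without one, 28 were lower, with a median of −0.18. In all, 16 tested genes had an ERSE in these windows, these members among them, and 43.8% of the 16 were lower, at a median of −0.07. That share counts the 6 lower members again. Most of the genes with an ERSE outside the members were not lower. ERSE-II was found in 3 members (6.38%), HYOU1, HERPUD1 and SDF2L1, beside 0.0696% of all genes and 0.0541% of windows, and all 3 were lower by the stricter call. Of all 14 tested genes with an ERSE-II, these members among them, 57.1% were lower at an adjusted p under 0.05, at a median of −0.12. Less their neighbours, HYOU1 and SDF2L1 stayed lower, at −1.08 and −0.44, while HERPUD1 was at −0.08 and not called (adjusted p = 0.0635). The UPRE core was found in 7 members (14.9%, beside 0.927% of genes and 0.729% of windows), DNAJC10, HYOU1, SEC62, SSR3, SSR4, TXNDC11 and TXNDC5, of which 6 were lower and TXNDC5 was not called, at a median of −0.24. Of the 40 members without it 28 were lower, at a median of −0.22, and of all 130 tested genes with it 32.3% were lower, close to the share of all genes. The CCAAT box alone was present in 76.6% of members and 39.7% of genes (34.6% of windows), and the letters CCACG alone in 78.7% of members and 42.1% of genes (38.1% of windows). Every ERSE holds both of these. A match is a description of the letters and not evidence of binding.

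Among the isomerases, 7 of 9 were lower and FKBP2 was higher, at a median log2 fold change of −0.23. They summed to 1986 ± 9.09 CPM in POLK sgRNA and 2343 ± 45.7 CPM in control libraries. PDIA6, a disulphide isomerase that also binds and attenuates IRE1 and PERK, had 273.3, 273.1 and 270.7 CPM in POLK sgRNA libraries 1, 2 and 3, against 417, 422 and 441 CPM in control libraries 1, 2 and 3. It was the 1 isomerase lower by the stricter call, at 63.8% of the control mean (log2 fold change −0.65, SE 0.02, adjusted p = 2.76e-22), and it was at −0.45 less its neighbours. PDIA6 shares 1033 exon bases with ATP6V1C2 on the opposite strand, and the library kit does not mark strand, but ATP6V1C2 averaged only 0.579 CPM in POLK sgRNA and 0.843 CPM in control libraries.

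PDIA3, the isomerase that calreticulin and calnexin recruit to glycoproteins, had 398, 390 and 393 CPM in POLK sgRNA libraries, against 465, 467 and 475 CPM in control libraries (log2 fold change −0.25, SE 0.02, adjusted p = 3.49e-12). PDIA4, a further thioredoxin-domain isomerase, had 307, 301 and 313 CPM in POLK sgRNA libraries, against 354, 364 and 366 CPM in control libraries (log2 fold change −0.23, SE 0.02, adjusted p = 7.25e-11). Neither pair of groups overlapped. The prolyl isomerase PPIB (cyclophilin B), TXNDC11 and PDIA5 were lower by log2 fold changes of −0.26, −0.24 and −0.21.

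P4HB, which encodes protein disulphide isomerase itself, averaged 735 ± 9.86 CPM in POLK sgRNA and 777 ± 20.2 CPM in control libraries, a small decrease (log2 fold change −0.08, adjusted p = 2.19e-03). FKBP2, a prolyl isomerase, had 77.4, 79.6 and 77.1 CPM in POLK sgRNA libraries, against 72.7, 74.8 and 74.5 CPM in control libraries. The lowest POLK sgRNA value was just above the highest control value (log2 fold change 0.08, SE 0.03, adjusted p = 0.0222), and the call was lost with DESeq2 (adjusted p = 0.0775), without control library 1 (0.122), without POLK sgRNA library 2 (0.109) and less its neighbours (0.604). TXNDC5, a thioredoxin-domain isomerase, varied within each group, with 11.3, 14.6 and 20.5 CPM in POLK sgRNA libraries and 18.0, 17.6 and 10.8 CPM in control libraries. Its ranges overlapped throughout (log2 fold change −0.01, SE 0.33, adjusted p = 0.983). It shares 2658 exon bases with the read-through gene BLOC1S5-TXNDC5, which has no row in the table.

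In the lectin cycle, which holds glycoproteins in the ER until they fold, calreticulin and calnexin were lower by nearly the same factor. CALR had 1293, 1256 and 1280 CPM in POLK sgRNA libraries, against 1721, 1752 and 1777 CPM in control libraries (log2 fold change −0.46, SE 0.02, adjusted p = 2.47e-19). CANX had 606, 579 and 590 CPM in POLK sgRNA libraries, against 810, 819 and 813 CPM in control libraries (log2 fold change −0.46, SE 0.02, adjusted p = 5.56e-19). The POLK sgRNA means were 72.9% of the control mean for CALR, the soluble lectin, and 72.7% for CANX, the membrane-bound one, with no overlap for either.

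The 2 glucosyltransferases that send misfolded glycoproteins back into the cycle moved in opposite directions before position was taken into account. UGGT1 had 200, 203 and 191 CPM in POLK sgRNA libraries, against 227, 231 and 236 CPM in control libraries (log2 fold change −0.22, SE 0.02, adjusted p = 1.59e-09). Less its neighbours, which lay at −0.25, UGGT1 was at 0.03 and not called (adjusted p = 0.338). Its paralog UGGT2 had 35.5, 38.4 and 37.9 CPM in POLK sgRNA libraries, against 33.0, 32.9 and 32.6 CPM in control libraries (log2 fold change 0.18, SE 0.04, adjusted p = 1.01e-04). The ratio of UGGT2 to UGGT1 counts was 0.188 ± 0.010 in POLK sgRNA and 0.142 ± 0.0033 in control libraries.

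Of 12 genes of translocation and signal cleavage, 9 were lower, 2 were higher and SEC61G was not called, at a median log2 fold change of −0.17. They summed to 1841 ± 30.9 CPM in POLK sgRNA and 2042 ± 32.3 CPM in control libraries. SEC61A1, which encodes the channel itself, had 340, 320 and 330 CPM in POLK sgRNA libraries, against 428, 434 and 429 CPM in control libraries. It was the 1 gene of the 12 lower by the stricter call (log2 fold change −0.38, SE 0.02, adjusted p = 4.78e-16). The small channel subunits SEC61B and SEC61G had log2 fold changes of −0.17 (adjusted p = 3.87e-03) and −0.06 (adjusted p = 0.0787), and SEC61G was called lower without control library 1 (adjusted p = 0.0480). SEC63 and SEC62, which help proteins that enter after their synthesis, were lower by log2 fold changes of −0.16 and −0.10.

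Of the 4 subunits of the translocon-associated protein complex (TRAP), 3 were lower and 1 was higher. SSR3 had 154, 146 and 148 CPM in POLK sgRNA libraries, against 182, 184 and 182 CPM in control libraries (log2 fold change −0.29, SE 0.02, adjusted p = 2.83e-12). SSR1 had 121, 113 and 114 CPM in POLK sgRNA libraries, against 139, 138 and 139 CPM in control libraries (log2 fold change −0.26, SE 0.03, adjusted p = 3.42e-10). SSR4 was lower by a log2 fold change of −0.24.

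SSR2, the subunit of the same complex that was higher, had 430, 424 and 426 CPM in POLK sgRNA libraries, against 403, 410 and 419 CPM in control libraries. The gap was small (log2 fold change 0.05, SE 0.02, adjusted p = 0.0298), and the call was lost without any 1 of 5 libraries, with adjusted p between 0.0525 and 0.168, as well as with DESeq2's size factors (0.0609) and DESeq2's own test (0.0654). The ratio of SSR2 to SSR3 counts was 2.86 ± 0.061 in POLK sgRNA and 2.25 ± 0.044 in control libraries.

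Signal peptidase subunits also differed among themselves. SPCS2 and SPCS3 were lower by log2 fold changes of −0.29 and −0.17. Less its neighbours, which lay at 0.11, SPCS3 was at −0.28. SPCS1, the small accessory subunit, had 186, 182 and 185 CPM in POLK sgRNA libraries, against 162, 166 and 169 CPM in control libraries. All 3 POLK sgRNA values were above the control values (log2 fold change 0.15, SE 0.02, adjusted p = 1.15e-06), and the ratio of SPCS1 to SPCS2 counts was 2.21 ± 0.073 in POLK sgRNA and 1.62 ± 0.035 in control libraries. SPCS1 shares 2698 exon bases with NEK4 on the opposite strand, so reads of the 2 genes cannot be fully separated. NEK4 averaged 42.8 CPM in POLK sgRNA and 41.2 CPM in control libraries (adjusted p = 0.188).

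The degradation genes were divided. Of 10 tested, 6 were lower, 3 were higher and SEL1L was not called, at a median log2 fold change of −0.12. Their sum was the only one of the 6 roles that was larger in POLK sgRNA libraries, at 769 ± 9.48 CPM, against 744 ± 2.44 CPM in control libraries. Without OS9 the sum was 593 ± 10.6 CPM in POLK sgRNA and 644 ± 3.27 CPM in control libraries, lower as in the other 5 roles. OS9, a lectin that passes trimmed glycoproteins to the ubiquitin ligase, had 173.9, 175.4 and 176.1 CPM in POLK sgRNA libraries 1, 2 and 3, against 101.1, 98.9 and 99.6 CPM in control libraries 1, 2 and 3. The groups did not overlap, and the log2 fold change of 0.81 was the largest increase among the 50 members tested (SE 0.02, adjusted p = 2.33e-24). Its neighbours lay at 0.62, and less these OS9 was at 0.20, below SIL1 at 0.27. ERLEC1, the related ER lectin, was instead lower by a log2 fold change of −0.11 (adjusted p = 7.09e-04), and less its neighbours it was higher, at 0.15 (adjusted p = 9.61e-06). The median taken off ERLEC1 rests on 18 genes, and its uncertainty is not part of that p-value.

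The 3 mannosidase-like EDEM proteins, which trim the glycans that OS9 reads, split as well. EDEM2 had 39.1, 39.3 and 39.7 CPM in POLK sgRNA libraries, against 27.9, 27.9 and 27.5 CPM in control libraries (log2 fold change 0.50, SE 0.04, adjusted p = 5.37e-14), and was at 0.18 less its neighbours, which lay at 0.32. EDEM3 had 86.0, 85.3 and 82.3 CPM in POLK sgRNA libraries, against 79.5, 77.8 and 76.0 CPM in control libraries (log2 fold change 0.12, SE 0.03, adjusted p = 5.03e-04). EDEM1 averaged 120 ± 2.09 CPM in POLK sgRNA and 145 ± 2.01 CPM in control libraries (log2 fold change −0.27, adjusted p = 2.33e-11). The ratio of EDEM2 to EDEM1 counts was accordingly 0.328 ± 0.0075 in POLK sgRNA and 0.192 ± 0.0029 in control libraries.

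HERPUD1, a stress-induced scaffold of the ligase complex, had 45.5, 41.3 and 42.8 CPM in POLK sgRNA libraries, against 58.9, 61.3 and 60.9 CPM in control libraries. It was the 1 degradation gene lower by the stricter call, without overlap (log2 fold change −0.48, SE 0.04, adjusted p = 5.47e-14). Less its neighbours, which lay at −0.41, it was at −0.08 and not called (adjusted p = 0.0635). SYVN1, the ligase, and the derlins DERL2 and DERL1, which form part of the exit channel, were lower by log2 fold changes of −0.16, −0.20 and −0.13, and DERL1 was not called less its neighbours (−0.05, adjusted p = 0.222). SEL1L, the ligase's adaptor, averaged 73.1 ± 1.62 CPM in POLK sgRNA and 76.1 ± 1.64 CPM in control libraries (log2 fold change −0.06, adjusted p = 0.0844), and it was called lower without control library 3 (adjusted p = 0.0329) and less its neighbours (−0.08, adjusted p = 0.0139).

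Position on the chromosome moved with several of these values. The neighbours of a member are the tested genes within 5 Mb that averaged at least 1 CPM, members left out. For 40 members their median log2 fold change was within 0.1 of 0, and of these 29 were lower and 6 were higher. Of all genes tested, in any neighbourhood, 31.6% were lower and 32.8% were higher. The other 10 lay in neighbourhoods that were shifted as a whole, 4 upward and 6 downward. All 6 members in lowered neighbourhoods were lower, and of the 4 in raised ones 3 were higher. Genes of a shifted neighbourhood tend to its side by definition, so these counts describe position and are not a result about the members. The share of all genes called in such neighbourhoods was not computed.

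The raised neighbourhoods were those of OS9 and HSP90B1 on chromosome 12, EDEM2 on chromosome 20 and SPCS3 on chromosome 4. The lowered ones were those of EIF2AK3, PDIA6, UGGT1 and ERLEC1 on chromosome 2, DNAJB11 on chromosome 3 and HERPUD1 on chromosome 16. HSPA5, HYOU1, CALR, CANX and SEC61A1 had neighbours between −0.03 and 0.06.

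With neighbours taken off throughout, 34 members were lower and 8 were higher, where 30.7% of all genes were lower and 30.4% were higher, and the members' median was −0.21. Chaperones stood at 10 lower and 1 higher with a median of −0.44, and translocation genes at 9 lower and 2 higher with a median of −0.17. Degradation genes stood at 4 lower and 4 higher, with a median of −0.06. What moves whole neighbourhoods in these libraries was not tested.

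**Figure D3:**
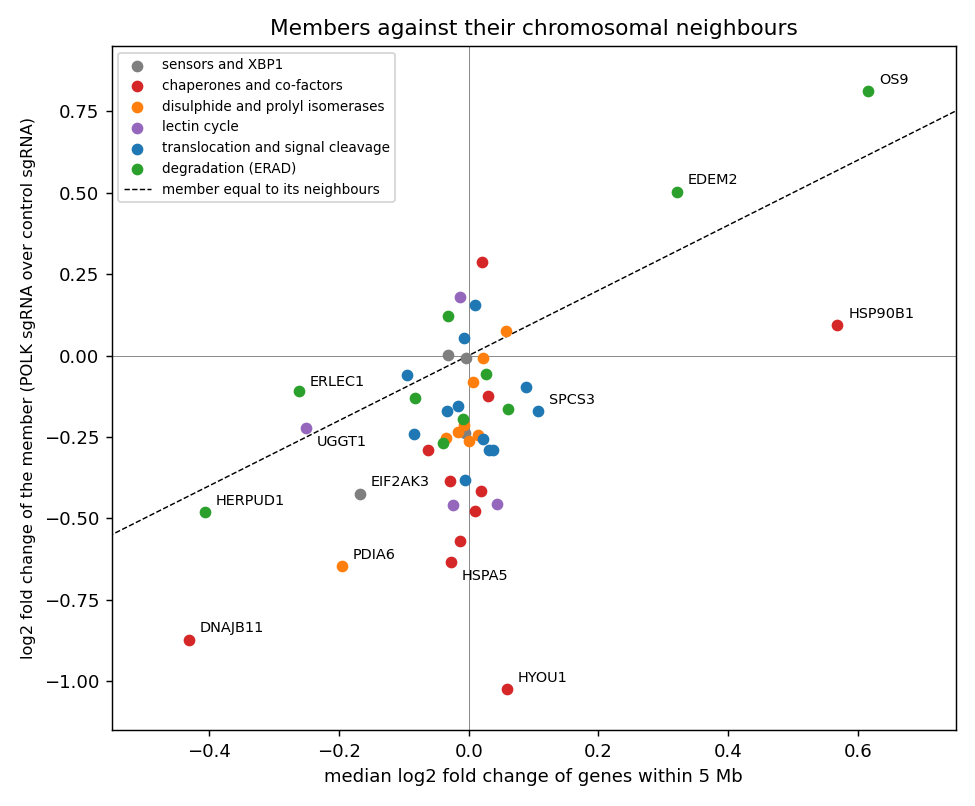
Log2 fold change of each of the 50 members tested (vertical axis, POLK sgRNA over control sgRNA) against the median log2 fold change of the tested genes within 5 Mb (horizontal axis), coloured by role, with a dashed line where a member equals its neighbours. OS9, EDEM2 and HSP90B1 lie to the right among raised neighbours, HSP90B1 far below the line, while HYOU1 and HSPA5 lie near 0 on the horizontal axis and far below it.

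Levels differed over a wide range between members. Per kb of exon, CALR was highest, with 470 CPM per kb in POLK sgRNA and 645 CPM per kb in control libraries. HSPA5 had 206 and HSP90B1 198 CPM per kb in POLK sgRNA libraries, against 319 for HSPA5 and 186 for HSP90B1 in control libraries. P4HB, CANX, PDIA4 and PDIA3 followed with between 92.8 and 139 CPM per kb in POLK sgRNA libraries. ERN1 was the lowest of the genes tested, with 0.785 CPM per kb in POLK sgRNA and 0.784 in control libraries, and DNAJC10 was next, with 2.54 CPM per kb in POLK sgRNA and 2.77 in control libraries. EIF2AK3 had 3.19 CPM per kb in POLK sgRNA and 4.27 in control libraries. Of the 25 members with the higher control levels per kb, 20 were lower and 4 were higher, with a median log2 fold change of −0.25. Of the 25 with the lower levels, 16 were lower and 5 were higher, with a median of −0.16.

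**Figure D4:**
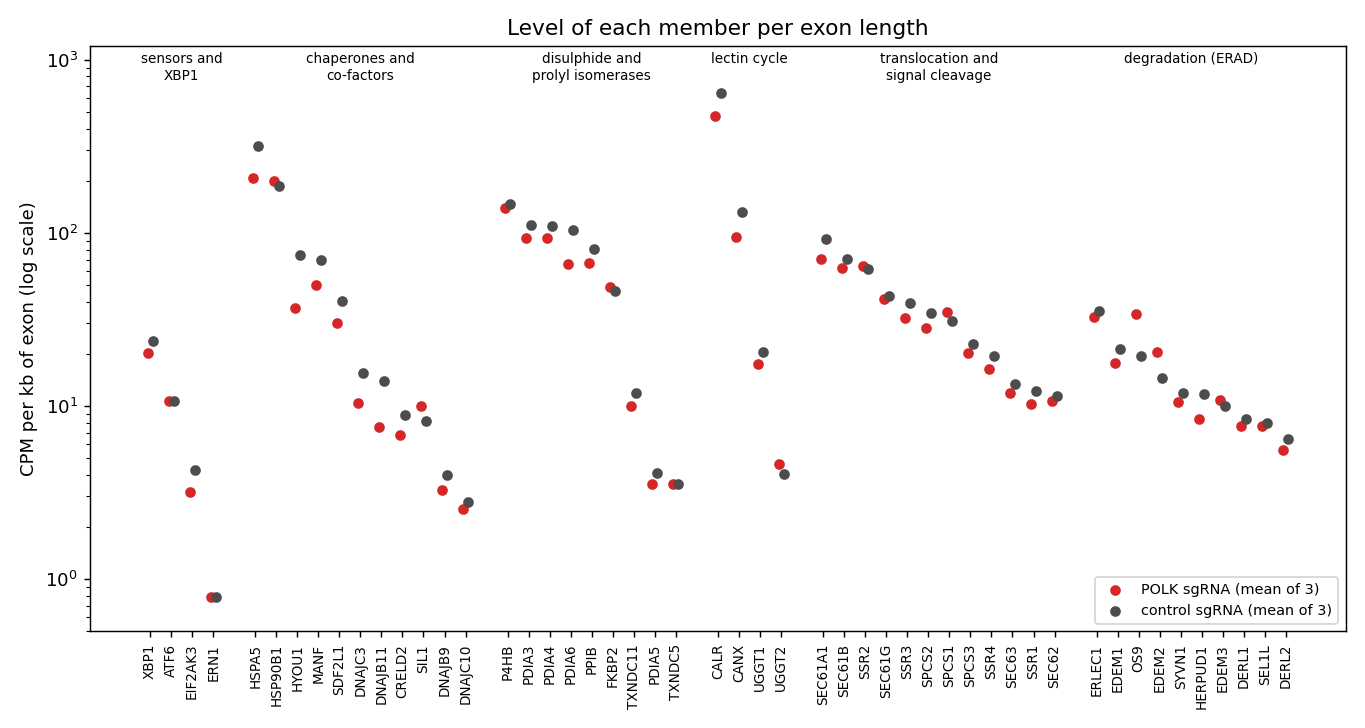
Mean level of each of the 50 members tested in CPM per kb of exon (vertical axis, log scale) in POLK sgRNA (red, left) and control sgRNA (grey, right) libraries, 3 of each, by role and in falling order of the control level. CALR stands at 470 in POLK sgRNA and 645 in control libraries, and the sensor ERN1 is lowest, at 0.785 in POLK sgRNA and 0.784 in control libraries.

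Other genes of the secretory pathway were read from 8 further lists in the same fit, whose counts stand beside the 32.8% of all genes called higher and the 31.6% called lower. The PERK and ATF4 arm, which serves amino acid supply and the integrated stress response, had 9 of 13 genes higher and 2 lower, with a median log2 fold change of 0.30. With neighbours taken off, 7 of these 13 were higher and 2 were lower. TRIB3, a pseudokinase induced by ATF4, averaged 76.4 ± 2.36 CPM in POLK sgRNA and 42.0 ± 1.27 CPM in control libraries (log2 fold change 0.87, SE 0.03, adjusted p = 1.34e-21), among neighbours at 0.59. ASNS, asparagine synthetase, averaged 141 ± 1.87 CPM in POLK sgRNA and 93.1 ± 3.55 CPM in control libraries (log2 fold change 0.60, SE 0.03, adjusted p = 2.52e-19), among neighbours at −0.01. EIF2AK3, the kinase at the head of this arm, was itself lower, as given above.

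Of 33 further genes of ER folding, retrieval and the unfolded protein response, 12 were higher and 14 were lower, at a median of −0.11. TMX4, a membrane-bound thioredoxin protein, averaged 186 ± 5.56 CPM in POLK sgRNA and 101 ± 3.25 CPM in control libraries, among neighbours at 0.62. RCN1, a calcium-binding protein of the ER, averaged 210 ± 4.54 CPM in POLK sgRNA and 123 ± 1.68 CPM in control libraries, among neighbours at 0.06. Their log2 fold changes were 0.87 and 0.78.

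A list of 12 genes joined the signal recognition particle and its receptor, which bring proteins to the channel, with signal peptidase and TRAM genes, which act at it. Of the 12, 5 were lower and 1 was higher, at a median of −0.06, and of the 8 genes of the particle and its receptor 2 were lower and 1 was higher. SRP9, a particle subunit, and SRPRB, a receptor subunit, had log2 fold changes of −0.24 and −0.27. Of 13 genes of oligosaccharyltransferase, which attaches glycans, 5 were lower and 3 were higher, at a median of −0.02. MAGT1, a subunit, had a log2 fold change of −0.40, and MLEC, the glycan-binding malectin, had 0.35 among neighbours at 0.55, less which it was called lower. Of 16 genes of the membrane insertion complexes EMC and GET, 8 were lower and 3 were higher, at a median of −0.11, and EMC3 and WRB were lower by −0.27 and −0.28.

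Of 28 further degradation genes, 12 were lower and 8 were higher, at a median of −0.04. UBXN4, which recruits the extracting ATPase, had a log2 fold change of −0.38 among neighbours at −0.31, and HM13, signal peptide peptidase, had 0.57 among neighbours at 0.43. Of 15 genes of the COPII coat, which carries folded cargo out, 9 were lower and 1 was higher, at a median of −0.13. The paralogs SEC23A and SEC23B had log2 fold changes of −0.37 and, among neighbours at 0.57, 0.63, and SEC23B was not called less these. Of 7 receptors of ER-phagy, SEC62 among them, 2 were lower and 3 were higher, at a median of 0.01, with CCPG1 at 0.51 and CALCOCO1 at 0.47 among neighbours at 0.60, less which CALCOCO1 was called lower.

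**Figure D5:**
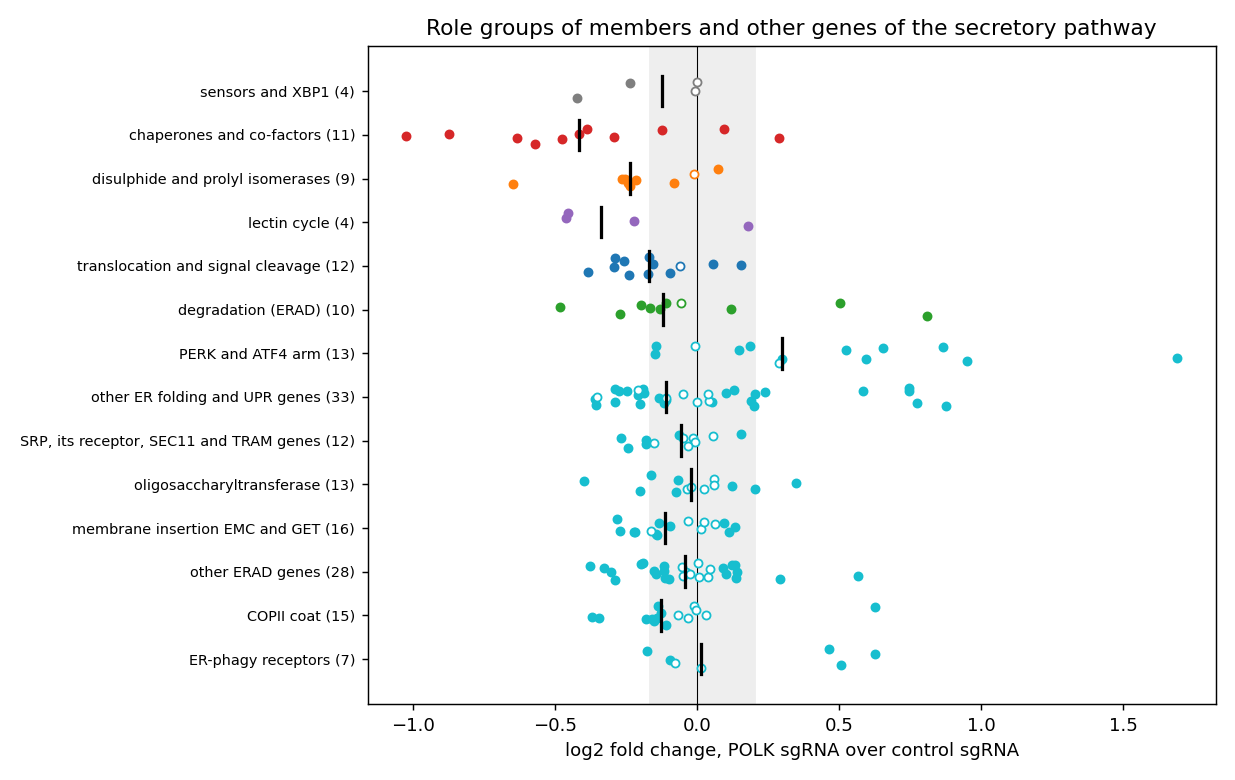
Log2 fold change (horizontal axis, POLK sgRNA over control sgRNA) of the genes tested in each of the 6 roles and the 8 further lists, with the number tested in brackets, a bar at each median and a grey band between the quartiles of all genes. Filled points have an adjusted p under 0.05. The chaperones have the lowest median, −0.42, and the PERK and ATF4 arm the highest, 0.30.

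Markers of other cell types were summed beside these values. The leukocyte markers summed to 58.2 to 60.3 CPM in POLK sgRNA and 17.7 to 18.1 CPM in control libraries, carried by CD68 and LYZ, while PTPRC was at 0.0311 CPM in POLK sgRNA and 0.0269 CPM in control libraries. Plasma cell markers, which would bring a large secretory ER, summed to 101 to 105 CPM in POLK sgRNA and 110 to 116 CPM in control libraries, carried by SDC1, with MZB1, TNFRSF17 and POU2AF1 all under 0.1 CPM. Epithelial markers summed to 149 to 155 CPM in POLK sgRNA and 101 to 103 CPM in control libraries, carried by KRT18 and KRT8. EPCAM was at 0.311 CPM in POLK sgRNA and 0.202 CPM in control libraries, and CDH1 was at 0.0473 CPM in POLK sgRNA and 0.0755 CPM in control libraries. Fibroblast markers summed to 29.2 to 29.6 CPM in POLK sgRNA and 19.5 to 19.6 CPM in control libraries. For endothelial markers the sum was 5.84 to 6.27 CPM in POLK sgRNA and 3.04 to 3.99 CPM in control libraries. Melanoma and melanocyte markers summed to 1720 to 1790 CPM in POLK sgRNA and 1430 to 1460 CPM in control libraries. The part of these differences in the values of the ER genes was not tested.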

How the data were processed

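The kit named in the labels, TruSeq RNA V2, makes mRNA libraries without a record of strand. The submitters' processing notes name FastQC, Trimmomatic, STAR, DESeq2 and the build GRCh38; no counting tool or version is given in the sources used here. As deposited, the values are raw counts per gene, not normalized by the authors, for 16934 genes. Genes were filtered with filterByExpr (minimum count 10, minimum total 15), which left 13930 (82.3%), and library sizes were scaled by TMM. The groups were compared in R 4.3.3 by the quasi-likelihood F test of edgeR 4.0.16 (robust, two-sided). P-values were adjusted by Benjamini-Hochberg over the genes tested, with calls at 0.05. CPM are on the TMM-scaled sizes. The stricter call is edgeR's glmTreat at the fold that equals 25% above or 20% below. Gene positions, exon lengths and overlaps came from GENCODE 29. Of the members, 28 share at least 50 exon bases with a gene on the opposite strand, 7 share exon bases with one on the same strand, and 7 have named pseudogene copies. Their counts are uncertain to that extent.

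Libraries of a group differed by more than sampling noise (chi-square per degree of freedom 1.98 to 4.02 within groups, 63.2 to 76.2 across), so none was treated as a duplicate. The members and all lists were chosen with earlier results of these data known. Values per library are given for POLK, the sensors, for each other role the 3 members of smallest p, and each member called against its role's majority; of the further lists the 2 genes with the smallest p are named. Other genes named (NEK4, ATP6V1C2 and BLOC1S5-TXNDC5), the sum without OS9, the division of the targeting list and the 5 ratios were chosen after their values were seen. Alternatives were DESeq2 1.42.0 and its size factors, library size alone, 2 other filters, limma-voom (limma 3.58.1), the replicate number as a block, each library left out, the stricter call, and the neighbours' median taken off.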

Additional observations from a re-analysis of the deposited data

How the results depend on the processing

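Across the settings other than the stricter call, between 36 and 37 members were lower and between 7 and 9 were higher when position was left uncorrected, while all genes called lower numbered 4075 to 4511 and higher 4002 to 4877. By the stricter call, 12 members and 1224 genes were lower, 2 members and 1653 genes were higher, 31 of the 45 called members lost their call, and POLK, at −0.36, was not called (adjusted p = 0.356). The members' median, −0.22, was −0.2246 with DESeq2's size factors, −0.2249 with its Wald test, −0.2099 without a filter, −0.2023 with library size alone and −0.2125 with neighbours taken off. Library size alone gave −0.1064 for sensors and −0.1547 for translocation genes, and neighbours taken off gave −0.2042 for the lectin cycle and −0.0617 for degradation genes. Leaving out each library in turn, the median ran between −0.2398 and −0.2079 for all members, −0.1416 and −0.1141 for sensors, −0.4619 and −0.3936 for chaperones and −0.2057 and −0.1531 for translocation genes. With neighbours taken off, HSP90B1 (−0.47), UGGT1 (0.028) and ERLEC1 (0.15) reversed in sign, with each median taken as known without error. The median of the neighbourhoods themselves, −0.0064 at 5 Mb, was 0.0016 at 2 Mb and 0.0021 at 10 Mb. The cause of these shifts was not tested.

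Libraries with the same replicate number did not deviate together (correlations −0.013, −0.036 and 0.013, against −0.034 to 0.049 for other pairs), so the numbers were not taken as pairs. With the replicate block 36 members were lower and 9 were higher, all 50 keeping their call, at a median of −0.22. DERL3 had too few counts to be tested at these depths.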
